A study of Mus musculus with 12 samples.

Results

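The Wnt genes described here are a list of 42: 17 Wnt ligands, 12 receptors (Fzd1 to Fzd10, Lrp5 and Lrp6), 8 secreted modulators of the Dickkopf and Sfrp families, and 5 genes at the nuclear end of the pathway (Axin2, Lef1, Tcf7, Tcf7l1 and Tcf7l2). Probe sets were taken by gene symbol, and the list was drawn up with earlier results of these data known. Of the 42, 41 had at least 1 probe set, out of 18193 genes that the array measured with probe sets of a single symbol. The cells came from neural tubes of ePet-EYFP mouse embryos at stage E12.5, in which the ePet enhancer of the serotonin factor Pet1 (Fev) drives a yellow fluorescent protein (YFP). All 4 groups carry that transgene. R+ are fluorescent, serotonin-type (5HT) cells of the rostral domain, between the mesencephalic and pontine flexures, and R- are the non-fluorescent cells of the same tissue. C+ and C- are the corresponding populations of the caudal domain, between the pontine flexure and the spinal cord. Each group had 3 arrays, called biological replicates in the labels, each made from 200000 sorted cells. Whether replicates came from separate litters is not stated in the sources used here, so p-values measure only the spread between these samples.

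Wnt proteins are secreted lipid-modified signals that bind Frizzled receptors. In the canonical branch they act with the co-receptors Lrp5 and Lrp6 to stabilise beta-catenin, which then drives targets through Tcf and Lef factors. Axin2 is a widely used feedback target of that branch. A separate branch, planar cell polarity, works through Frizzled, Celsr and Vangl proteins, and in mice Fzd3, Celsr3 and Vangl2 are needed for the anterior to posterior guidance of brainstem serotonin axons. In the embryonic neural tube, Wnt ligands are made by dorsal midline cells, at the border of midbrain and hindbrain, and by progenitors of the ventricular zone.

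Promoter sequence is shown for 3 members that were lower in both fluorescent populations and whose RefSeq start site is the outer end of the gene. Fzd1 and Frzb kept their calls under every setting tried, and Fzd7 is the member of these 3 with a match to a Tcf/Lef motif. Each is the 250 bases before the start site on the gene's own strand, 5′ to 3′, from RefSeq on build GRCm38.p6, with the motif match in capitals.
Fzd1, chr5:4758217-4758466, minus strand: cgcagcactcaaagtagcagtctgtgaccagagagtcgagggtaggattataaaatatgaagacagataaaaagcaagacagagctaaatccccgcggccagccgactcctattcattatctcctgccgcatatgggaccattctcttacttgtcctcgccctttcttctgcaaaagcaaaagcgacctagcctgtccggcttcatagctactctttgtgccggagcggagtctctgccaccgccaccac
Fzd7, chr1:59481897-59482146, plus strand: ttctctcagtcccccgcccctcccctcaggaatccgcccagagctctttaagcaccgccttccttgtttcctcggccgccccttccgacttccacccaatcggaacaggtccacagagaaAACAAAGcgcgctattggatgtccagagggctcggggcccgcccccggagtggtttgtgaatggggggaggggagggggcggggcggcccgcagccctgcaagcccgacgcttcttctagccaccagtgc
Frzb, chr2:80447397-80447646, minus strand: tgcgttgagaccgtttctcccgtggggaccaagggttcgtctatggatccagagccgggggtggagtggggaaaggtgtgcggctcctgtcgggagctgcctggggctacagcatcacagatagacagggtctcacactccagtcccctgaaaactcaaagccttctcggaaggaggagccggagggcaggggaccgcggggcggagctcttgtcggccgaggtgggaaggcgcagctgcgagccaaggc
The motifs searched were CTTTGAT and CTTTGTT, on both strands. The match in Fzd7 is CTTTGTT on the opposite strand, starts at position 121 of the window, and its end nearest the start site lies 124 bases before that site. The GC content of the windows was 51.2% for Fzd1, 65.2% for Fzd7 and 64.4% for Frzb, and the median over all windows was 52.4%. Over all 32851 windows of the table, 2648 (8.06%) held a match. RefSeq windows were found for 30 of the 42 members, 38 windows in all, and 5 of them held a match: 1 each of Wnt5b, Wnt11, Fzd7, Dkk1 and Tcf7l2. A match is a run of letters and not a measured binding site.

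Array signal is MAS5 signal on a linear scale, scaled so that the mean trimmed by 2% was 500 on every array. The median signal of an array lay between 93 and 121, and the median of all values, 107, is used below as a mark of a low signal. Arrays within a group correlated at 0.942 to 0.97, and arrays of different groups at 0.875 to 0.954. Of 8 serotonin neuron markers, 8 were higher in R+ than in R- and 8 were higher in C+ than in C-. Tph2, which makes serotonin, read 5578 to 6784 in R+, 20 to 83 in R-, then 1869 to 2449 in C+ against 18 to 41 in C-. The 3' to 5' ratio of the beta-actin control, a measure of RNA quality, was 2.64 to 4.39 on rostral arrays and 4.52 to 7.69 on caudal arrays, with no overlap.

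The 41 members had 84 probe sets, 14 members with 1 and 27 with several. A probe set was tested where its signal exceeded 107 on at least 3 arrays, which 48 did, and each member is represented by its probe set of the highest mean log2 signal, with a set marked as open to cross-hybridization (_x_at) used only where no other passed. This left 30 members tested: 9 of 17 ligands, 11 of 12 receptors, 6 of 8 modulators and 4 of the 5 nuclear genes. The 11 that did not pass were Wnt1, Wnt2, Wnt3, Wnt8b, Wnt9a, Wnt10a, Wnt10b, Wnt16, Lrp5, Dkk2 and Sfrp5, whose group means ranged from 6.33 for Wnt2 in R+ to 105 for Sfrp5 in R-. Wnt1, a ligand of the dorsal midline and the midbrain border, averaged 21.0 ± 5.57 (SD, n = 3) in R+, 55.3 ± 24.1 in R-, then 24.7 ± 9.29 in C+ against 63.0 ± 40.7 in C-. Tcf7 had no probe set of that symbol. A member that passed through a high group alone had to differ. The counts below are over the 30 tested, such members included, and describe them without standing for all 42.

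Of the 30 tested Wnt genes, 14 were lower and 0 higher in R+ than in R-, and 16 were not called (limma, adjusted p under 0.05). Between C+ and C-, 13 were lower, 0 higher and 17 not called. Over all 12845 genes, 7.86% were lower and 4.34% higher in R+ than in R-, and 7.39% were lower and 5.71% higher in C+ than in C-. With the replicate number as a block, 17 members were lower in R+ than in R- and 15 in C+ than in C-, where 20.9% and 22.8% of all genes were called in either direction. At an unadjusted p under 0.05, 1 member (Wnt4) was higher and 18 lower in R+ than in R-, against 9.21% and 14.1% of all genes. None was higher and 15 were lower in C+ than in C-, against 10.8% and 13.5%. The median member differed by -1.08 on the log2 scale between R+ and R-, where the median gene differed by -0.01, and by -0.80 between C+ and C-, where the median gene differed by -0.04. The 2 comparisons share no array, and 11 members were lower in both: Wnt7a, Wnt7b, Fzd1, Fzd2, Fzd7, Fzd9, Sfrp2, Frzb, Axin2, Tcf7l1 and Tcf7l2. That is 78.6% of the rostral list and 84.6% of the caudal list. Over all genes, the 614 lower in both were 60.8% and 64.7% of the 2 lists. The R+ arrays lay wholly below the R- arrays in 20 members and wholly above in 1, against 16.4% and 12.1% of all genes. The C+ arrays lay wholly below the C- arrays in 14 and above in 0, against 15.1% and 12.3%. The signal here is per array of bulk cells, so fewer cells of a type and less RNA per cell cannot be told apart.

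**Figure D1:**
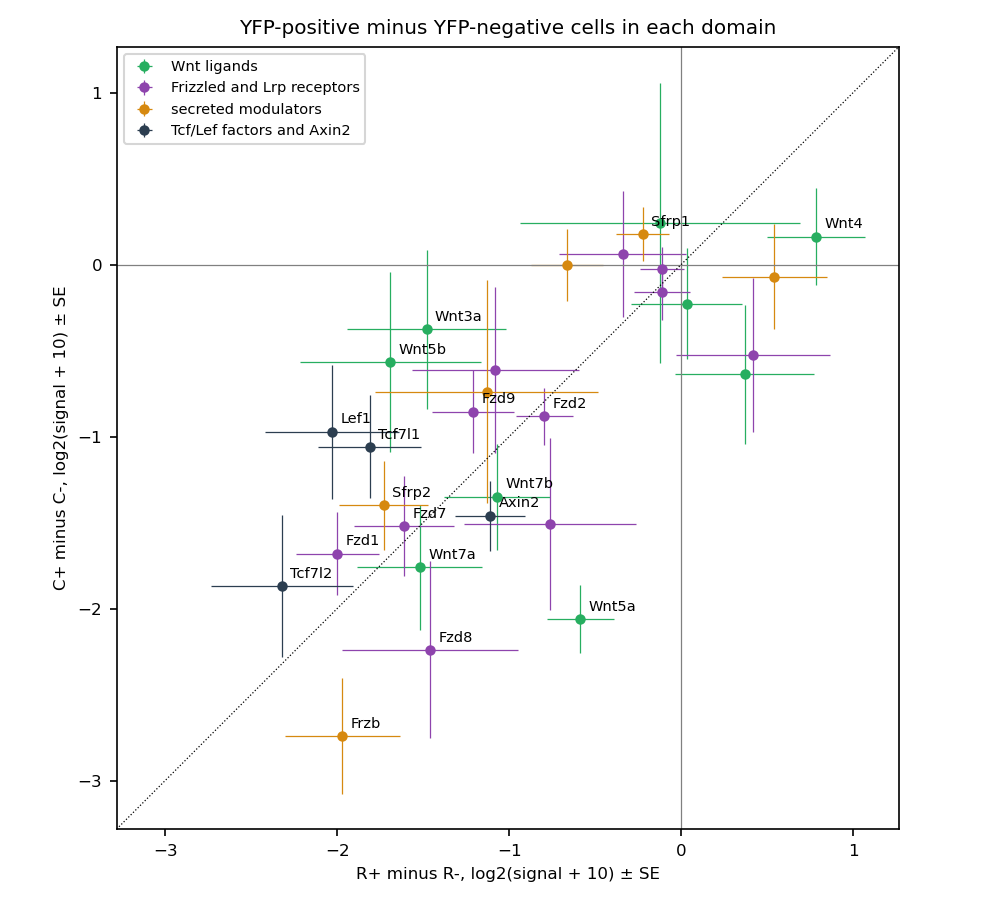
Difference between fluorescent and non-fluorescent cells in each domain for the 30 members tested, on the log2(signal + 10) scale: R+ minus R- on the x axis and C+ minus C- on the y axis, coloured by role, with bars of 1 standard error on either side and a dotted line of equal difference. Members called in at least 1 comparison are named. Most points lie below 0 on both axes, from Frzb at -1.97 and -2.74 to Wnt4 at 0.78 and 0.16, and Wnt5a lies farthest to the caudal side of the line.

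Among the ligands, Wnt7a and Wnt7b, which in the neural tube are canonical ligands of ventricular zone cells, were lower in serotonin neurons of both domains. Wnt7a read 54, 210 and 163 in R+, 316, 387 and 432 in R-, 114, 140 and 92 in C+, and 414, 437 and 381 in C-. All fluorescent arrays lay below all non-fluorescent arrays. The difference was -1.52 ± 0.36 (log2, SE) between R+ and R- (limma adjusted p = 0.0114, 2.86-fold) and -1.76 ± 0.36 between C+ and C- (adjusted p = 0.00381, 3.39-fold). Without R+ replicate 1 the rostral difference was -0.98 (adjusted p = 0.025), and without R- replicate 3 it was -1.42 (adjusted p = 0.0566). With the mean of its probe sets it was -0.81 (adjusted p = 0.228). Wnt7b read 227, 644 and 469 in R+, 1020, 720 and 908 in R-, 464, 278 and 323 in C+, and 1035, 733 and 966 in C-. Its groups did not overlap in either domain, although the highest R+ array and the lowest R- array lay close together. The differences were -1.07 ± 0.31 (adjusted p = 0.0324) and -1.35 ± 0.31 (adjusted p = 0.00777). The rostral call was lost without R+ replicate 1 (-0.66, adjusted p = 0.136), R- replicate 1 (-0.96, 0.105), R+ replicate 3 (-1.17, 0.0537) or R- replicate 3 (-1.04, 0.103).

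Wnt5a, a ligand of the non-canonical branch, was lower in C+ than in C-, and among non-fluorescent cells it was lower in the rostral domain. It read 298, 473 and 439 in R+, 593, 617 and 587 in R-, 300, 363 and 462 in C+, and 1468, 1696 and 1549 in C-. The C- arrays stood above every other array, and the R- arrays stood above both fluorescent groups. The difference between C+ and C- was -2.06 ± 0.20 (limma adjusted p = 3.39e-06, 4.16-fold), and it was called under every setting tried. Between R+ and R- it was -0.59 ± 0.20, which did not pass (adjusted p = 0.0683) but did with the replicate number as a block (adjusted p = 0.0137), among other settings.

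Wnt3a, a canonical ligand of the dorsal midline, and Wnt5b were lower in R+ than in R- by a narrow margin. Wnt3a read 88, 27 and 38 in R+ and 131, 169 and 141 in R-, a difference of -1.48 ± 0.46 (limma adjusted p = 0.0485). Wnt5b was tested by an _x_at probe set, open to cross-hybridization, because its other probe set did not pass the filter. It read 62, 24 and 14 in R+ and 72, 164 and 127 in R-, a difference of -1.69 ± 0.53 (adjusted p = 0.0498). All 6 of these R+ signals lie below the mark of 107, and the groups did not overlap. Leaving out any 1 R- array, R+ replicate 2 or R+ replicate 3 ended the call of Wnt3a, with an adjusted p of 0.085 to 0.178. So did leaving out any 1 C- array (0.0515 to 0.0624) or C+ replicate 3 (0.061), arrays that are not in this comparison. It was also lost with log2(signal + 50) (-1.01, 0.0577), no filter (-1.48, 0.0696), the compared groups alone (0.058) or the beta-actin covariate (-1.43, 0.0538). Wnt5b lost its call without R+ replicate 2 (0.13), R+ replicate 3 (0.172), R- replicate 2 (0.19), R- replicate 3 (0.154), C+ replicate 2 (0.0511), C+ replicate 3 (0.0614) or any 1 C- array (0.0629 to 0.0698). Other settings that ended it were no filter, under which another probe set was used (-0.88, 0.498), log2(signal + 50) (-1.04, 0.0556), quantile normalization (0.0512), a common median (0.0535), the mean of probe sets (0.052), the covariate (0.0558) and the compared groups alone (0.0904). In the caudal domain the differences were -0.38 ± 0.46 for Wnt3a and -0.57 ± 0.53 for Wnt5b, and both groups of arrays overlapped.

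Wnt4 was the member with the highest value in R+ relative to R-. It read 158, 177 and 186 in R+, 121, 111 and 66 in R-, 299, 618 and 590 in C+, and 417, 412 and 450 in C-. The R+ arrays lay above the R- arrays with a difference of 0.78 ± 0.28 that did not pass (limma adjusted p = 0.0957), and C+ and C- overlapped. It did pass without C+ replicate 1, an array that is not in this comparison (adjusted p = 0.037), without replicate 1 of every group (1.00), and with the beta-actin ratio as a covariate (0.85, adjusted p = 0.0488). Wnt11, a further non-canonical ligand, read 92, 117 and 61 in R+, 90, 39 and 77 in R-, 69, 90 and 138 in C+, and 162, 142 and 159 in C-. The C- arrays were above all others, but neither C+ against C- (-0.64 ± 0.40, adjusted p = 0.374) nor R- against C- (-1.12 ± 0.40, adjusted p = 0.189) passed. Wnt6 lay between 95 and 210 and Wnt2b between 15 and 124 on all 12 arrays, with overlap in every comparison.

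**Figure D2:**
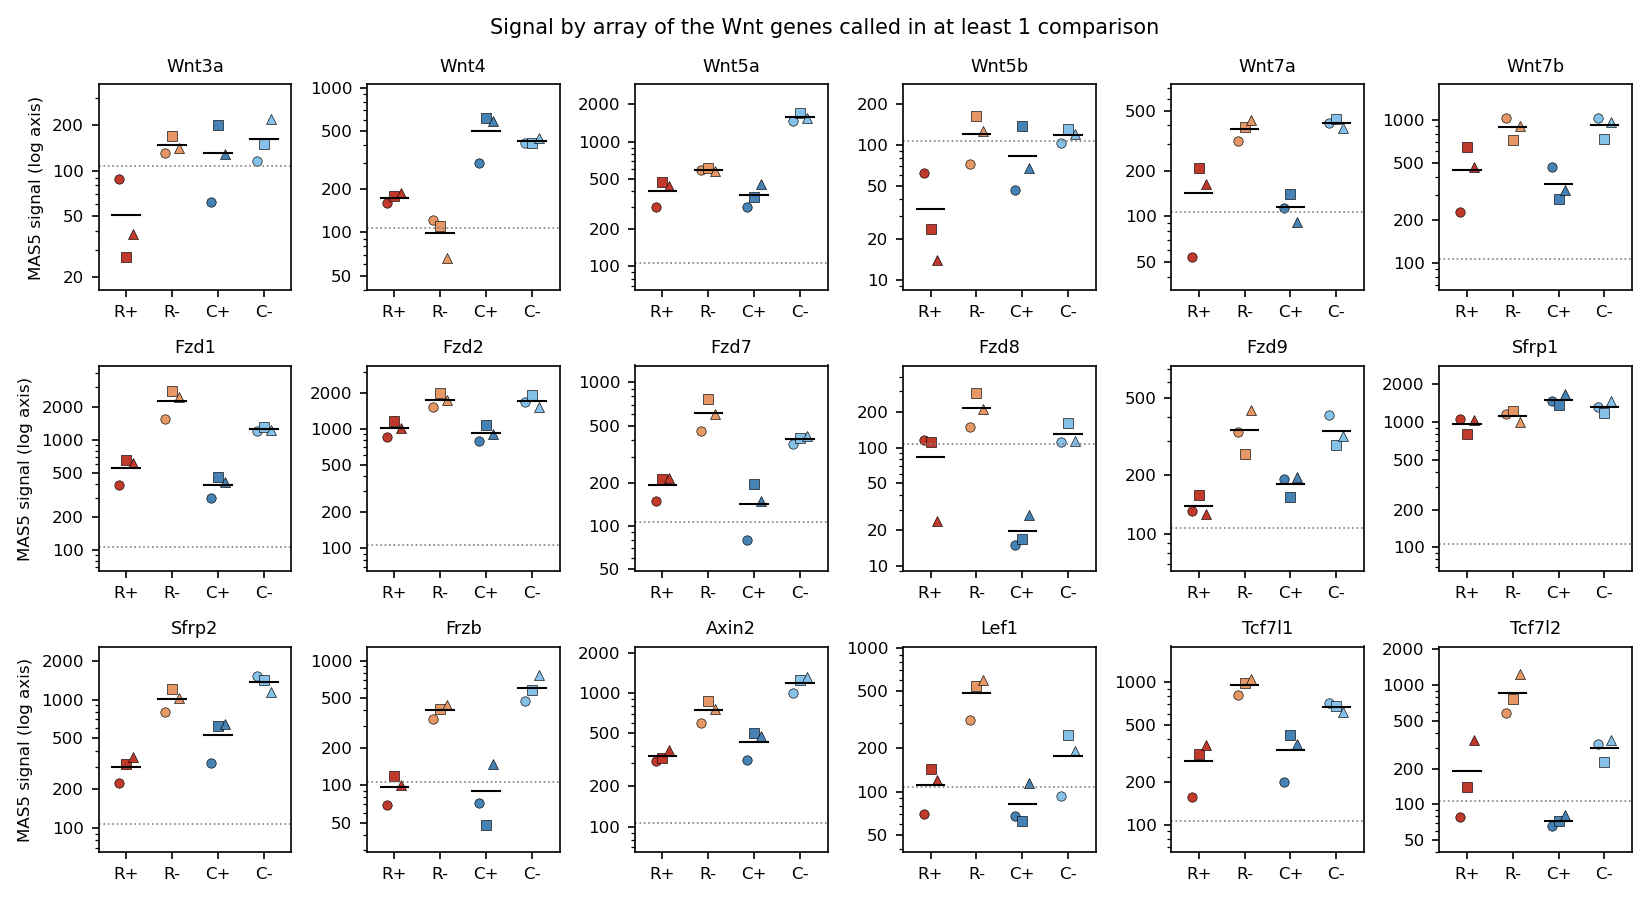
MAS5 signal (log axis) of the 18 members called in at least 1 comparison on each of the 12 arrays, by group. Circles, squares and triangles are replicates 1, 2 and 3, bars are group means, and the dotted line marks the median of all values, 107. Fzd1, Frzb, Sfrp2 and Axin2 show the 2 fluorescent groups below the 2 non-fluorescent groups with no overlap within a domain, while Wnt4 separates by domain.

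Among the receptors, 4 of 11 were lower in R+ than in R- and 5 of 11 in C+ than in C-. Fzd1 read 394, 662 and 612 in R+, 1544, 2780 and 2466 in R-, 295, 462 and 416 in C+, and 1207, 1312 and 1232 in C-. Every fluorescent array was below every non-fluorescent array. The differences were -2.0 ± 0.24 in the rostral domain (limma adjusted p = 4.31e-05, 3.99-fold) and -1.68 ± 0.24 in the caudal domain (adjusted p = 0.000206, 3.19-fold). Fzd2 read 860, 1151 and 1017 in R+, 1528, 1990 and 1753 in R-, 784, 1066 and 913 in C+, and 1662, 1902 and 1533 in C-. Its differences were smaller, -0.80 ± 0.17 and -0.88 ± 0.17 (adjusted p = 0.00452 and 0.00193), and with the mean of its probe sets the rostral one was -0.45 (adjusted p = 0.28). Fzd7 read 149, 213 and 216 in R+, 461, 773 and 603 in R-, 80, 197 and 148 in C+, and 374, 407 and 422 in C-. It differed by -1.61 ± 0.29 and -1.52 ± 0.29 (adjusted p = 0.00154 and 0.00218). For Fzd2 and Fzd7 the fluorescent and non-fluorescent arrays of a domain did not overlap.

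Fzd9 read 131, 158 and 127 in R+, 333, 257 and 430 in R-, 191, 154 and 196 in C+, and 409, 285 and 316 in C-, again without overlap. The differences were -1.21 ± 0.24 (limma adjusted p = 0.00323) and -0.86 ± 0.24 (adjusted p = 0.0284). The caudal call was lost without C- replicate 1 (-0.71, adjusted p = 0.129), C+ replicate 2 (-0.75, 0.112) or C- replicate 3 (-0.89, 0.0652), and with no filter (0.064), a common median (-0.77, 0.0751) or the compared groups alone (0.0568). Fzd8 read 117, 111 and 24 in R+, 151, 292 and 213 in R-, 15, 17 and 27 in C+, and 111, 163 and 115 in C-. All C+ arrays were far below the mark of 107, and C+ was lower than C- by 2.24 ± 0.51 on the log2 scale (-2.24, adjusted p = 0.00847). With an offset of 50 in place of 10 the difference was -1.36 (adjusted p = 0.0119). The rostral difference of -1.46 ± 0.51 did not pass (adjusted p = 0.0864) but did with the replicate block (adjusted p = 0.0483) and with an offset of 50.

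The planar polarity receptor Fzd3 and the canonical co-receptor Lrp6 were not called between R+ and R- or between C+ and C-. Fzd3 read 6089, 6970 and 6221 in R+, 6677, 7752 and 6447 in R-, 6997, 8536 and 8618 in C+, and 7858, 9066 and 7579 in C-. The 95% interval of its log2 difference ran from -0.38 to 0.16 between R+ and R- and from -0.29 to 0.25 between C+ and C-, so a difference as large as that of Fzd1 lies outside both. Lrp6 read 469, 402 and 475 in R+, 482, 549 and 428 in R-, 630, 510 and 556 in C+, and 590, 642 and 662 in C-. Its intervals ran from -0.45 to 0.23 and from -0.50 to 0.18. In both domains the fluorescent and non-fluorescent arrays of each of these receptors overlapped.

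Fzd6, a receptor of the polarity branch, read 74, 129 and 105 in R+, 130, 220 and 194 in R-, 20, 43 and 123 in C+, and 98, 170 and 240 in C-. Its rostral arrays did not overlap, although the highest R+ and the lowest R- array were almost equal, its caudal arrays did, and neither -0.76 ± 0.50 (limma adjusted p = 0.418) nor -1.51 ± 0.50 (adjusted p = 0.0632) passed. The caudal difference passed with the replicate block (adjusted p = 0.00844). Among other settings, it also passed without C- replicate 1 (-1.83, adjusted p = 0.0443) or C+ replicate 3 (-2.09, 0.00908). Fzd10 read 79, 153 and 192 in R+ and 255, 210 and 467 in R-, which did not overlap but did not pass (-1.08 ± 0.48, adjusted p = 0.192), and it passed without C+ replicate 1 (adjusted p = 0.0449). Fzd4 lay between 64 and 141 and Fzd5 between 54 and 164 on all arrays, with overlap in every comparison.

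Of the secreted modulators, which bind Wnts or their receptors in the extracellular space, Sfrp2 and Frzb were lower in both fluorescent populations. Frzb, also known as Sfrp3, read 69, 118 and 101 in R+, 342, 411 and 444 in R-, 72, 48 and 147 in C+, and 476, 579 and 766 in C-. Each non-fluorescent array was above each fluorescent one. The differences were -1.97 ± 0.34 (limma adjusted p = 0.000959, 3.91-fold) and -2.74 ± 0.34 (adjusted p = 4.23e-05, 6.68-fold), the latter the largest of any member in these comparisons. Of the 6 fluorescent signals, 4 lie below the mark of 107: R+ at 69 and 101 and C+ at 72 and 48. Sfrp2 read 224, 316 and 354 in R+, 800, 1210 and 1021 in R-, 322, 624 and 644 in C+, and 1524, 1415 and 1154 in C-. It differed by -1.73 ± 0.26 (adjusted p = 0.000312) and -1.40 ± 0.26 (adjusted p = 0.00172).

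The other modulators were not called between fluorescent and non-fluorescent cells. Sfrp1 read 1053, 803 and 1028 in R+ and 1153, 1213 and 995 in R-, and 1456, 1372 and 1658 in C+ and 1320, 1173 and 1472 in C-, with overlap in both domains. The intervals of its differences ran from -0.56 to 0.11 and from -0.15 to 0.51. They hold for the probe set used, and several other probe sets of Sfrp1 lay outside them. In a separate fit over probe sets these others gave 0.152, 0.466, 0.594 and 0.142 in the rostral domain. In the caudal domain they gave -1.452, 0.066, 0.615 and -0.595, and none was called in either domain. Sfrp4 lay between 179 and 438 with overlap in every comparison. Dkk3 read 203, 235 and 234 in R+, 345, 390 and 347 in R-, 249, 363 and 415 in C+, and 377, 304 and 329 in C-. The R+ arrays were below all others, but its difference from R- just missed the threshold (-0.66 ± 0.21, limma adjusted p = 0.0504). It passed with the replicate block (0.0235), without C+ replicate 1 (0.024) and without C+ replicate 3 (0.0448), among other settings. The second probe set of Dkk3 gave 0.113 between R+ and R- in the separate fit, the opposite sign (limma adjusted p = 0.938). Dkk1, an inhibitor that binds Lrp6, read 78, 38 and 61 in R+ and 125, 134 and 153 in R-, without overlap and without a call (-1.13 ± 0.65, adjusted p = 0.335).

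At the nuclear end of the pathway, 4 of 4 tested genes were lower in R+ than in R- and 3 of 4 in C+ than in C-. Axin2 read 311, 325 and 373 in R+, 595, 869 and 762 in R-, 315, 505 and 472 in C+, and 1004, 1237 and 1306 in C-. No fluorescent array reached a non-fluorescent one. It differed by -1.11 ± 0.20 (limma adjusted p = 0.00187, 2.15-fold) and -1.46 ± 0.20 (adjusted p = 0.000162, 2.74-fold). Tcf7l2 read 78, 139 and 351 in R+, 584, 772 and 1246 in R-, 66, 73 and 81 in C+, and 319, 227 and 348 in C-. It had the largest rostral difference of any member, -2.32 ± 0.41 (adjusted p = 0.00137, 4.98-fold), and a caudal difference of -1.87 ± 0.41 (adjusted p = 0.00632). With the mean of its probe sets the caudal difference was -1.28 (adjusted p = 0.0674). Replicate 3 was the highest of its group in all 4 groups.

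Tcf7l1, a Tcf factor that mostly acts as a repressor, read 156, 317 and 366 in R+, 821, 996 and 1050 in R-, 201, 430 and 368 in C+, and 714, 683 and 623 in C-. The differences were -1.81 ± 0.30 (limma adjusted p = 0.000719) and -1.06 ± 0.30 (adjusted p = 0.0288), without overlap in either domain. The caudal call was lost without C+ replicate 1 (-0.74, adjusted p = 0.0902), C- replicate 1 (-1.02, 0.0802), C- replicate 2 (-1.05, 0.0736) or C- replicate 3 (-1.11, 0.0645). Lef1 read 70, 145 and 120 in R+, 317, 542 and 603 in R-, 68, 63 and 115 in C+, and 94, 247 and 191 in C-. Its R- arrays stood above all others and its caudal arrays overlapped. It was lower in R+ than in R- (-2.03 ± 0.39, adjusted p = 0.00254), and the caudal difference of -0.97 ± 0.39 did not pass (adjusted p = 0.133). It passed with the replicate block (0.0215), without C- replicate 1 (-1.35, 0.0379) and without replicate 1 of every group (-1.25, 0.0209).

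The non-fluorescent cells are a mixture, and markers of several, though not all, other cell types were also lower in the fluorescent cells. Of 9 tested markers of neural progenitors and radial glia, 9 were lower in R+ and 8 lower in C+, and their summed signal was 19187 to 20947 in R+, 47192 to 58587 in R-, then 20196 to 25768 in C+ against 48396 to 52623 in C-. Of 9 tested cell cycle genes, 9 and 8 were lower, with sums of 1705 to 3334, 9302 to 12112, 1614 to 3107 and 7132 to 9639 in the same order. Of 7 tested markers of the roof plate, choroid plexus and dorsal midline, 3 were lower in each domain, with sums of 873 to 1659, 7384 to 8634, 3606 to 4556 and 19745 to 28381. Zic1 alone made up 562 to 1034, 6062 to 7378, 1992 to 2536 and 15892 to 20772 of these sums. Of 9 tested markers of glutamate and GABA neurons, 9 and 8 were lower, with sums of 2587 to 3957, 28875 to 34708, 4519 to 5603 and 25521 to 27835. The 4 tested red blood cell genes were lower in both fluorescent populations, with sums of 8693 to 15580, 45070 to 59141, 4792 to 8626 and 40427 to 44926. Of 6 tested markers of neural crest and early glia, 3 and 4 were lower, with sums of 526 to 1115, 2519 to 3549, 978 to 1612 and 3582 to 4664. Pdgfra passed the filter through its C- arrays alone (275 to 354) and Olig2 through non-fluorescent arrays alone. In the lists above, Aurkb, Gdf10 and Alas2 likewise had no fluorescent array above 107. For such markers the filter favoured a lower reading in fluorescent cells, and the counts include them. Endothelial markers, 0 and 2 of 7 lower, summed to 714 to 946, 888 to 1114, 746 to 957 and 1286 to 1804. Macrophage markers, of which 1 of 6 was higher in R+ and 1 lower in C+, summed to 1275 to 2766, 1115 to 1566, 823 to 940 and 887 to 1322. No tested marker was at 0 on any array. Their part in the Wnt results was not tested.

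Between domains, 2 of 30 members were lower and 0 higher in R+ than in C+ (limma, where 4.48% of all genes were lower and 2.83% higher), and 2 were lower and 0 higher in R- than in C- (1.78% and 1.05% of all genes). In each case 6.67% of the members were called, against 7.32% and 2.83% of all genes. With the replicate block 7 and 6 were called. At an unadjusted p under 0.05, 7 were lower and 2 higher in R+ than in C+ (13.4% and 9.86% of all genes), and 5 lower and 3 higher in R- than in C- (8.57% and 6.38%). The arrays did not overlap in 5 members lower and 0 higher in R+ than in C+ (15.9% and 10.1% of all genes), and in 6 lower and 5 higher in R- than in C- (10.8% and 8.39%). Those of the 5 without a call were Fzd3, Lrp6 and Dkk3, and those of the 6 without a call were Wnt11, Lrp6, Frzb and Axin2. Wnt4 was lower in both rostral populations, by -1.41 ± 0.28 in R+ against C+ (adjusted p = 0.00796, 2.66-fold) and by -2.03 ± 0.28 in R- against C- (adjusted p = 0.000725, 4.10-fold). Every rostral array of Wnt4 was below every caudal array, as listed above. Without C+ replicate 2 the difference between R+ and C+ was -1.23 (adjusted p = 0.0551) and without C+ replicate 3 it was -1.27 (adjusted p = 0.0501). With the beta-actin ratio, which separates the domains, as a covariate it was -0.96 (adjusted p = 0.308). Between R- and C- the Wnt4 difference passed in each of these settings.

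Wnt5a was lower in R- than in C- (-1.37 ± 0.20, limma adjusted p = 0.000845, 2.59-fold), while R+ and C+ differed by 0.10 ± 0.20 with overlapping arrays. The domain difference itself differed between fluorescent and non-fluorescent cells, by 1.47 ± 0.28 on the log2 scale (adjusted p = 0.0137). It was the 1 member of 30 called in that test, where 1.17% of all genes were called. Without R+ replicate 3 it was 1.40 (adjusted p = 0.0502), and with the mean of its probe sets 1.25 (adjusted p = 0.0965). The summed signal of mesenchyme, meninges and pericyte markers was 538 to 810 in R+, 1036 to 1734 in R-, then 2936 to 3313 in C+ against 2647 to 3825 in C-, with 3 of 7 tested lower in R+ than in R- and 4 lower and 1 higher in C+ than in C-. The mesenchyme sums of C+ and C- overlapped. In C+, 2178 to 2494 of the sum came from Dcn, which read 292 to 502 in C-. Col1a1 and Postn of that list had no fluorescent array above 107, so the filter favoured their reading lower in fluorescent cells. The roof plate sums given above, in C- mostly Zic1 (15892 to 20772), were highest in C-. Their part in the Wnt5a pattern was not tested.

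Sfrp1 was the other member lower in R+ than in C+ (-0.64 ± 0.15, limma adjusted p = 0.0236), with no overlap between the 803 to 1053 of R+ and the 1372 to 1658 of C+. The call rests on 1 of 5 probe sets. The other 4 gave 0.24, 0.05, -0.07 and 0.57, none called. It was also lost with a common median (0.103), the compared groups alone (0.0554) or the beta-actin covariate (-0.48, 0.367), and without R+ replicate 2 (-0.51, adjusted p = 0.0772), C+ replicate 2 (-0.70, 0.0556), R+ replicate 3 (-0.69, 0.0565) or C+ replicate 3 (-0.56, 0.112).

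With the replicate number as a block, 7 members were called between R+ and C+, where 21.8% of all genes were, and 6 between R- and C-, where 10.2% of all genes were. Those added between R+ and C+ were Fzd1 (0.49, limma adjusted p = 0.0249), Fzd8 (1.46, 0.0464) and Tcf7l2 (1.01, 0.0267) as higher in R+, and Fzd3 (-0.32, 0.0166) and Sfrp2 (-0.77, 0.0139) as lower. Those added between R- and C- were Fzd1 (0.81, 0.00241), Lef1 (1.45, 0.00442) and Tcf7l2 (1.46, 0.00677) as higher in R-, and Axin2 (-0.67, 0.0074) as lower. Without the block, Fzd3 in R+ against C+ was -0.32 ± 0.13 (adjusted p = 0.138) and passed with quantile normalization (-0.41, 0.0492). Between R- and C- the adjusted p without the block was 0.0649 for Lef1 and 0.0809 for Tcf7l2. Lef1 passed without it at an offset of 50 (1.26, 0.0385), with quantile normalization (1.46, 0.0356), a common median (1.55, 0.0274) or the compared groups alone (1.45, 0.0435). Tcf7l2 passed at an offset of 50 (1.35, 0.0474) or with the compared groups alone (1.46, 0.00949), among other settings. Both had R- arrays above all C- arrays, as did Fzd1, Fzd7 and Tcf7l1. Leaving out C+ replicate 1 gave 6 calls between R+ and C+ (Wnt3a, Fzd3, Dkk3 and Sfrp2 added, all lower in R+), and leaving out C+ replicate 2 or C+ replicate 3 gave 0. Midbrain and isthmus markers summed to 4590 to 5042 in R+, 7219 to 7946 in R-, then 430 to 617 in C+ against 1171 to 2136 in C-, and their part in these values was not tested.

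**Figure D3:**
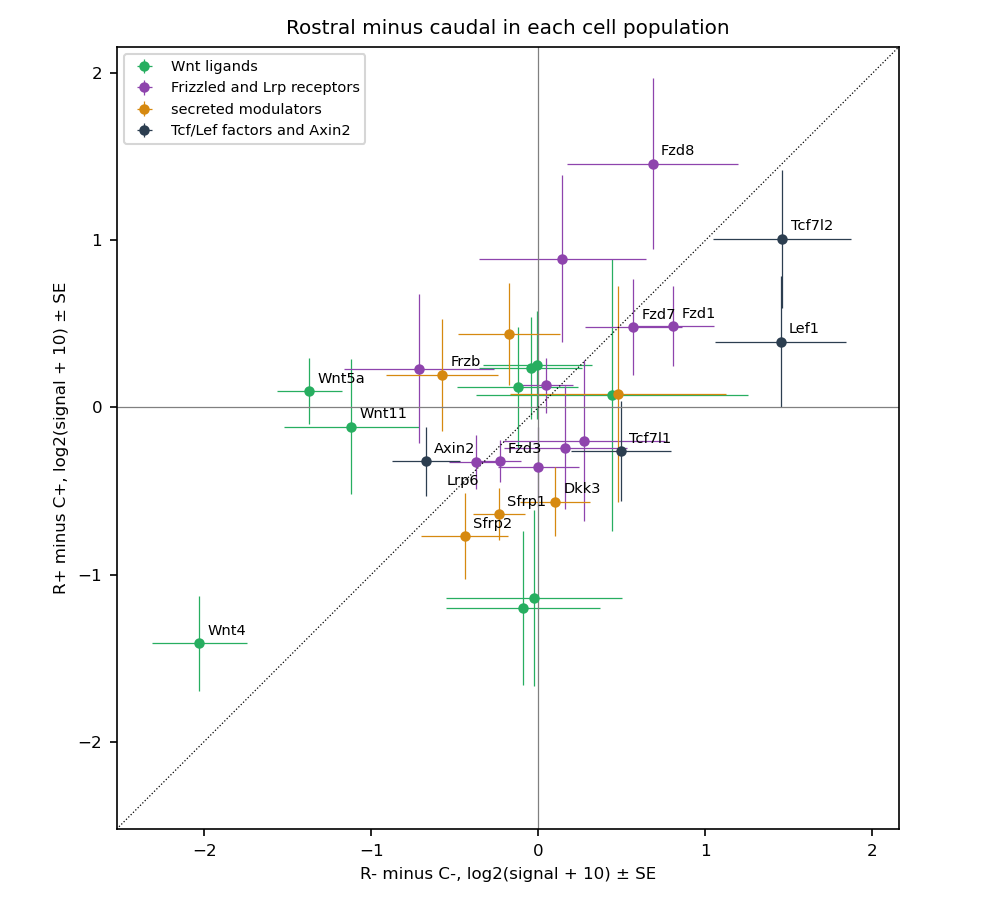
Difference between domains for the 30 members, on the log2(signal + 10) scale: R- minus C- on the x axis and R+ minus C+ on the y axis, with bars of 1 standard error on either side and a dotted line of equal difference. Members whose arrays did not overlap, or that were called with the replicate block, are named. Wnt4 lies far below 0 on both axes, Wnt5a lies at -1.37 on the x axis and 0.10 on the y axis, and Lef1 and Tcf7l2 lie to the right with differences that did not pass.

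Further probe sets gave a check of the calls, with values from a separate fit over all 26061 probe sets that passed the filter. The 32 called member results include 14 whose gene had another probe set tested, with 24 such comparisons in all. In 9 the other probe set was called in the same direction, in 10 it had the same direction without a call, and in 5 the opposite sign without a call. Wnt4 had a second probe set with -1.08 (limma adjusted p = 0.0292) between R+ and C+ and -1.65 (adjusted p = 0.0031) between R- and C-. Tcf7l1 had a second with -2.42 and -2.09 in the rostral and caudal domains, both called. The other 2 probe sets of Fzd2 gave -0.12 and -0.45 in the rostral domain, not called, and -1.74 and -1.29 in the caudal domain, called. The second of Wnt7a gave -0.10 and -0.86, not called. The other probe sets of Tcf7l2 gave -1.86 and -1.42 in the rostral domain, the latter called, and -1.27 and -0.70 in the caudal domain. That called Tcf7l2 probe set passed the filter on its 3 R- arrays alone (158, 200 and 217). It therefore had to read lower in R+ than in R-. Its call, counted among the 9 above, is no independent check. The probe set with -1.86 passed the filter only because of its R- arrays (123, 128 and 133). Its lower reading in R+, counted among the 10 above, is no independent check either. For Wnt5a, the second probe set gave -2.56 between C+ and C- (adjusted p = 0.000472) and -1.76 between R- and C- (adjusted p = 0.0296), and 2.30 ± 0.52 for the difference of differences (adjusted p = 0.0891). This second probe set passed the filter only because of its C- arrays (276, 313 and 299). The only other array above the filter mark was R+ replicate 2 (112). C- is the higher group in both called comparisons, so these calls, counted among the 9 above, are no independent check. In that separate fit the Wnt5a probe set used for the main results had an adjusted p of 0.0348 for the difference of differences. The remaining and dimmest tested probe set of Wnt5a gave -0.85, 0.26 and -0.03 in the same order, not called. It exceeded the filter mark only on non-fluorescent arrays (116, 149 and 122). Its sign between C+ and C-, counted among the 10 above, is therefore no independent check.

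**Figure D4:**
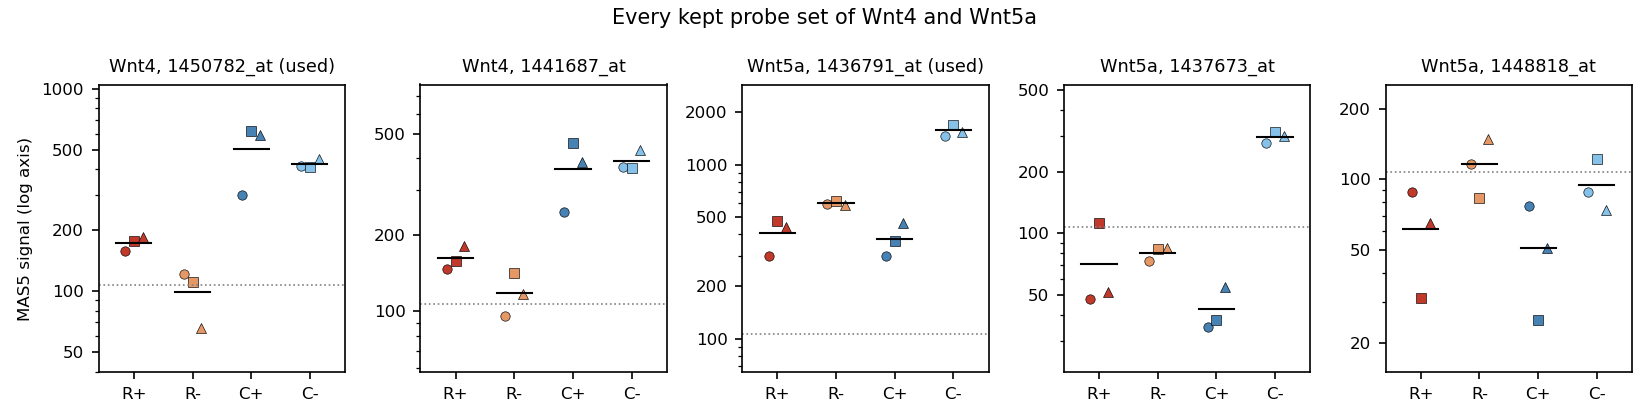
MAS5 signal (log axis) on the 12 arrays for every tested probe set of Wnt4 (the first pair of panels) and Wnt5a (the remaining panels). Symbols are replicates 1, 2 and 3 as circles, squares and triangles, bars are group means, and the dotted line marks 107. Both Wnt4 probe sets separate the domains, the brighter pair of Wnt5a probe sets is highest in C-, and the last Wnt5a probe set stays near or below the dotted line.

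The rest of the pathway was followed in a further 77 genes, of which 63 were tested. Of these, 5 were higher and 11 lower in R+ than in R-, 3 and 6 in C+ than in C-, 4 and 3 in R+ than in C+, and 2 and 2 in R- than in C- (limma). In that order 25.4%, 14.3%, 11.1% and 6.35% of the 63 were called, against 12.2%, 13.1%, 7.32% and 2.83% of all genes, and the counts of the lists that follow are to be read against the same shares of all genes. Among secretion and extracellular genes, 1 of 10 tested was higher and 3 lower in R+ than in R-, and 2 were lower in C+ than in C-. Draxin, a secreted guidance protein and Wnt antagonist, averaged 1137 ± 189 (SD, n = 3) in R+, 2626 ± 143 in R-, then 674 ± 179 in C+ against 3675 ± 765 in C-. It was lower by -1.21 ± 0.20 (adjusted p = 0.000672) and -2.44 ± 0.20 (adjusted p = 6.85e-07), and higher in R+ than in C+ by 0.76 ± 0.20 (adjusted p = 0.0319). The last of these did not pass in the separate fit over probe sets (limma adjusted p = 0.0548). The arrays of Draxin did not overlap in any of these comparisons. The glypican Gpc4, a cell surface proteoglycan, was lower in both domains (-1.36 ± 0.29 and -1.80 ± 0.29), whereas Gpc3 was higher in R+ than in R- (1.33 ± 0.32, adjusted p = 0.0116) and than in C+ (1.25 ± 0.32, adjusted p = 0.0292).

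Rspo2, an R-spondin that strengthens Wnt reception, averaged 67.7 ± 41.2 in R+, 338 ± 30.6 in R-, then 29.7 ± 9.71 in C+ against 81.3 ± 49.3 in C-. It was lower in R+ than in R- (-2.28 ± 0.48, limma adjusted p = 0.00493) and higher in R- than in C- (2.06 ± 0.48, adjusted p = 0.0314). Rspo2 passed the filter only because of its R- arrays (316 to 373). R- is the higher group in both comparisons, so the filter favoured both calls. Of 4 tested R-spondin receptors and their ubiquitin ligases, Lgr5 was lower in C+ than in C- (-1.48 ± 0.46, adjusted p = 0.0477). That difference did not pass in the separate fit over probe sets (limma adjusted p = 0.0673). None of the 4 was called in the other comparisons. At an unadjusted p under 0.05 there was 1 between R+ and R-, 1 between R+ and C+ and 0 between R- and C-.

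Of 13 tested planar cell polarity genes and alternative receptors, Prickle1 was higher (1.13 ± 0.20, limma adjusted p = 0.00132) and Celsr1 lower (-1.28 ± 0.29, adjusted p = 0.00759) in R+ than in R-, with 0.42 and no call for the second probe set of Prickle1. None of the 13 was called in C+ against C- or between domains. At an unadjusted p under 0.05 there were 3 between R+ and R-, 0 between C+ and C-, 0 between R+ and C+ and 2 between R- and C-. Vangl2 averaged 4648 ± 514 in R+, 4762 ± 273 in R-, then 4642 ± 38.1 in C+ against 4765 ± 380 in C-, and its differences were -0.04 ± 0.12 and -0.03 ± 0.12. Celsr3, the Celsr of growing axons, averaged 2433 ± 162, 1944 ± 363, 2075 ± 555 and 2039 ± 271 in the same order, with differences of 0.34 ± 0.19 (adjusted p = 0.312) and 0.00 ± 0.19. Ryk, an alternative Wnt receptor in axon guidance, averaged 1729 ± 677, 2136 ± 743, 1304 ± 510 and 1310 ± 621. None of its differences passed, and with the replicate block it was lower in R+ than in R- (adjusted p = 0.0371), higher in R+ than in C+ (0.0116) and higher in R- than in C- (0.000307).

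Of 21 cytoplasmic transducers tested, 2 were higher and 3 lower in R+ than in R-, and 2 higher and 1 lower in C+ than in C-. Beta-catenin (Ctnnb1) was called in no comparison without the block, with differences of -0.14 ± 0.13 and -0.24 ± 0.13, and was lower in C+ than in C- with it (limma adjusted p = 0.0498). Dixdc1, a partner of Dishevelled, was lower in both (-0.71 ± 0.18 and -0.83 ± 0.18). Its other probe sets gave -0.42 and -0.30 in the rostral domain, not called, and -1.93, called, and -0.30, not called, in the caudal domain. Btrc, which marks beta-catenin for destruction, was higher in both (0.79 ± 0.12 and 0.97 ± 0.12), but none of its other 4 probe sets was called. The other gene higher in R+ than in R- was Apc (0.42), and the other higher in C+ than in C- was Nlk (0.44). Neither passed in the separate fit over probe sets (limma adjusted p = 0.0571 and 0.0565). Nkd1, a feedback inhibitor, was lower in R+ than in R- (-1.08 ± 0.27, adjusted p = 0.0162), but its other 3 probe sets gave -0.74, 0.93 and -0.53, none called. Dact1, a Dishevelled-binding regulator, averaged 1032 ± 101 in R+, 1696 ± 289 in R-, then 3186 ± 177 in C+ against 2874 ± 51.3 in C-. It was lower in R+ than in R- (-0.70 ± 0.14, adjusted p = 0.00377), in R+ than in C+ (-1.62 ± 0.14, adjusted p = 3.85e-06) and in R- than in C- (-0.77 ± 0.14, adjusted p = 0.00678).

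Of 15 nuclear cofactors and targets, 1 was higher and 4 lower in R+ than in R-, and 1 higher and 2 lower in C+ than in C-. Ccnd1, a cell cycle gene and Tcf target, was lower in both (-1.89 ± 0.16, limma adjusted p = 9.6e-07, and -1.73 ± 0.16, adjusted p = 2.03e-06), as was the target Sp8 (-1.70 ± 0.31 and -1.31 ± 0.31). Of the Groucho-type corepressors, Tle2 averaged 515.7 ± 97.1 in R+, 174.7 ± 49.7 in R-, then 225 ± 33.4 in C+ against 304 ± 31.9 in C-. It was higher in R+ than in R- (1.53 ± 0.23, adjusted p = 0.000341) and than in C+ (1.16 ± 0.23, adjusted p = 0.00757), while C+ and C- differed by -0.42 ± 0.23 (adjusted p = 0.287). Tle1 and Tle3 were lower in R+ than in R- (-0.83 ± 0.19 and -0.75 ± 0.14). The second probe set of Tle1 gave -0.81, called, and the other 3 of Tle3 gave -0.16, 0.27 and 0.65, none called. Tle4 was higher in C+ than in C- (0.85 ± 0.15, adjusted p = 0.00107), and its second probe set gave 0.48, not called. Between domains, 2 of the 15 were higher and 2 lower in R+ than in C+, and 1 higher and 1 lower in R- than in C-. Myc was lower in R+ than in C+ (-1.43 ± 0.21, adjusted p = 0.000785) and in R- than in C- (-0.89 ± 0.21, adjusted p = 0.0364). The latter did not pass in the separate fit over probe sets (limma adjusted p = 0.0635). Ccnd1 went the other way, with 0.75 and 0.91 (limma adjusted p = 0.0191 and 0.009 in the separate fit over probe sets). Its other probe sets gave 0.84 and 0.76 between R+ and C+, not called. Between R- and C- they gave 1.38, called, and 0.68, not called.

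**Figure D5:**
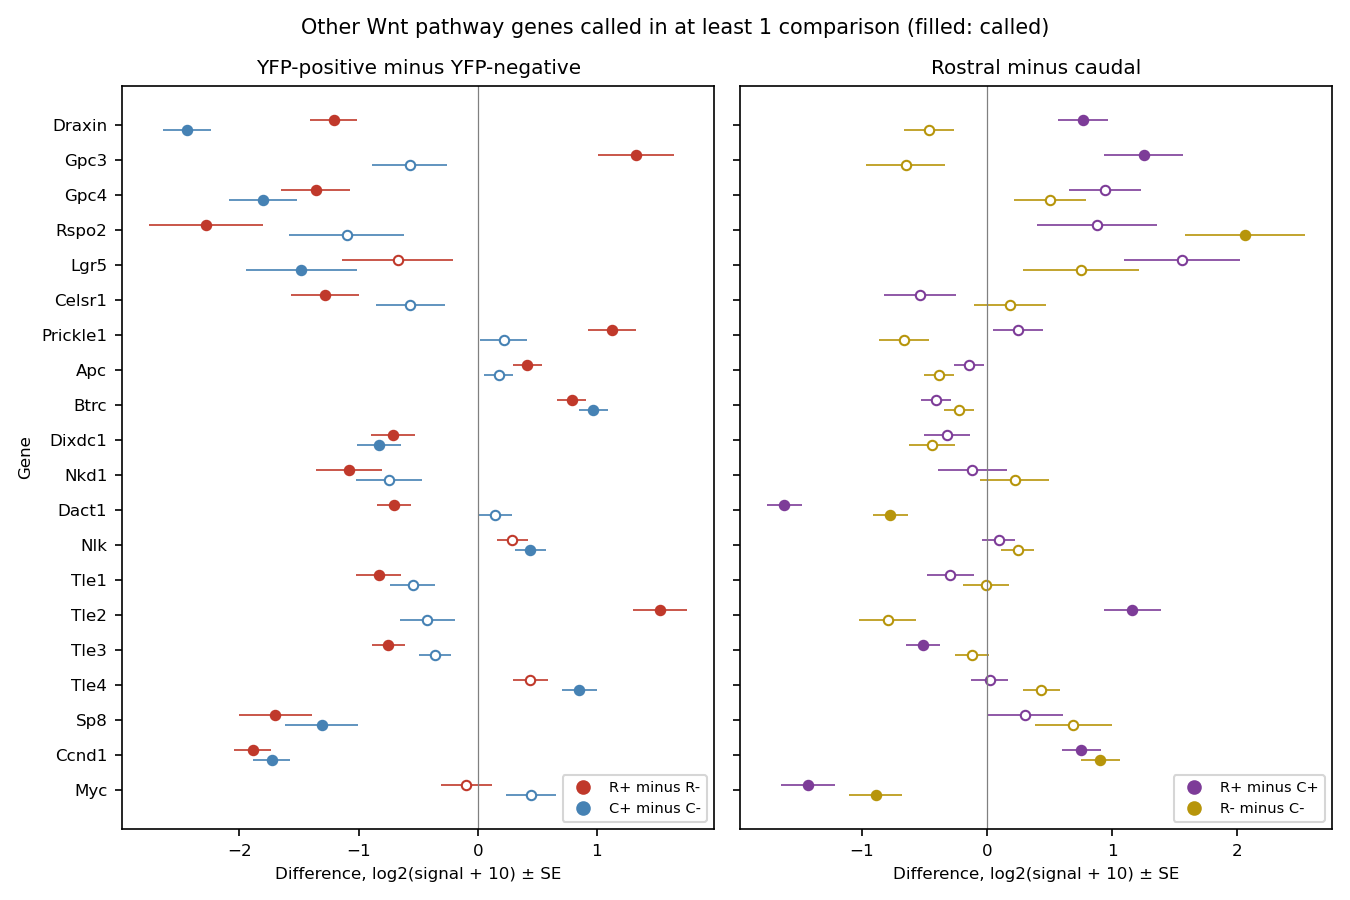
Log2 differences (bars of 1 standard error on either side) of the 20 other pathway genes called in at least 1 of these 4 comparisons, fluorescent minus non-fluorescent cells at left and rostral minus caudal at right. Filled points passed the test and open points did not. Ccnd1 and Draxin lie below 0 in both domains at left, and Tle2 lies above 0 in the rostral domain and below it, without a call, in the caudal domain. At right, Dact1 and Myc lie below 0 and Ccnd1 lies above 0.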

How the data were processed

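The 12 Affymetrix Mouse 430 2.0 arrays carried RNA extracted with Trizol and amplified once, per the labels' protocols. The authors deposited signal intensity made with MAS5, per the submitters' processing notes, as whole numbers for 45101 probe sets. Of these, 64 were controls, 34945 had 1 gene symbol, 932 several and 9160 none in the platform annotation. Symbols of 34741 matched RefSeq (GRCm38.p6) and 1 listed name was updated (Aes to Tle5).

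Differences were computed on log2(signal + 10), a scale that understates the change of low genes, with limma 3.58.1 in R 4.3.3. The fit had 1 mean per group over all 12 arrays, a trended prior, two-sided tests and Benjamini-Hochberg adjustment over 12845 genes per comparison at 0.05. A probe set stayed in the test if its signal passed 107, the median over all values, on 3 or more arrays. This held for 26061 probe sets, 22030 of them with 1 symbol. Values for further probe sets of a gene come from a separate fit over the 26061, with p-values adjusted over them. The number of arrays limits the precision. The difference of differences is (R+ minus C+) minus (R- minus C-). The fits were tested on simulated data.

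Samples with the same replicate number tended to deviate together, and the labels do not say whether they shared a dissection or sort. Deviations from group means correlated at 0.118 to 0.52 in 18 of 18 same-numbered pairs and at -0.398 to 0.273 in 36 others, with replicate 1 the strongest (0.334 to 0.52). The fit with that number as a block was an alternative. Others were the offset, the filter, the normalization, the probe set rule, the arrays in the fit, the prior, the beta-actin 3' to 5' ratio as a covariate, and leaving out each array. Leaving out 1 replicate number from every group was added after seeing the data.

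The members and lists were chosen with earlier results of these data known. Members that were called or whose groups did not overlap are given by array and the rest by range. Of the other pathway genes, those named were called with the largest differences of a list, at most 3 per list, comparison and direction, with Celsr3, Vangl2 and Ryk named whatever their value. Ctnnb1 was added after its values were seen. Protein sequences were not used here.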

Additional observations from a re-analysis of the deposited data

Results flagged for a closer look

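The difference between domains was not the same in fluorescent and non-fluorescent cells for Wnt5a and 2 other pathway genes, by a test of that difference (limma, Benjamini-Hochberg adjusted). For Wnt5a it was 1.47 ± 0.28 (log2, SE, adjusted p = 0.0137). The value came from R- below C- by 1.37 on the log2 scale (-1.37) and R+ close to C+ (0.10). For the corepressor gene Tle2 it was 1.95 ± 0.33 (adjusted p = 0.00613), with 1.16 between R+ and C+ and -0.79 between R- and C-. For Draxin it was 1.23 ± 0.28 (adjusted p = 0.0496), with 0.76 between R+ and C+ and -0.46 between R- and C-. In the separate fit over probe sets the limma adjusted p of this test was 0.0157 for Tle2 and 0.105, not called, for Draxin. Tle2 and Draxin each had 1 tested probe set.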

How the results depend on the processing

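The 32 called member results were repeated under up to 27 settings each. In 9 the call held in every setting run for it: Fzd1, Sfrp2, Frzb and Tcf7l1 in R+ against R-, and Wnt5a, Fzd1, Sfrp2, Frzb and Axin2 in C+ against C-. 1 reversed: Sfrp1 in R+ against C+ was 0.03 (adjusted p = 0.958) with the mean of its probe sets.

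The count of members called, 14 in R+ against R-, was 10 to 18 without 1 array, 9 without replicate 2 of every group and 5 without replicate 3 of every group. In C+ against C-, 13 became 11 to 14 without 1 array and 7 without replicate 3 of every group. In R+ against C+, 2 became 1 with a common median, the compared groups alone or the mean of probe sets, 0 with the beta-actin covariate, 7 with the replicate block, 0 to 6 without 1 array, and 0 to 8 without a replicate number (8 without replicate 1, 0 without replicate 2 or replicate 3). In R- against C-, 2 became 4 with log2(signal + 50) or the compared groups alone, 6 with the replicate block, 2 to 3 without 1 array, and 0 to 5 without a replicate number (5, 1 and 0). The difference of differences, 1, was 0 with the mean of probe sets, without R+ replicate 3, or without replicate 2 or 3 of every group. The cause was not tested. Settings that leave out arrays have fewer samples.

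Over all genes, 1567 were called between R+ and R- and 1683 between C+ and C-, or 2684 and 2929 with the replicate block. There were 940 between R+ and C+ (2795 with the block), 363 between R- and C- (1310), and 150 for the difference of differences (340). The count between R+ and R- was 1040 without R- replicate 3. Between R+ and C+ it was 507 with a common median, 605 with those groups alone, 609 without the trend, 216 with the beta-actin covariate, 1798 without replicate 1 of every group, and, without a single array, 505 (R+ replicate 1), 391 (R+ replicate 3), 1736 (C+ replicate 1), 378 (C+ replicate 2) and 397 (C+ replicate 3). Between R- and C- it was 216 with the covariate, 238 without R- replicate 1, 187 without R- replicate 3, 232 without C- replicate 2 and 218 without C- replicate 3. Without replicate 2 of every group the 5 counts, in the order given, were 631, 796, 188, 93 and 34, and without replicate 3 they were 622, 658, 139, 70 and 27. A common median moved the share of calls that were higher from 37.2% to 51.6% between R- and C- (51.4% with the covariate) and from 42.0% to 31.7% for the difference of differences. Of the called members, Wnt3a, Wnt4, Wnt5b, Wnt7a, Fzd7, Fzd8, Frzb, Lef1 and Tcf7l2 each had arrays at or below the median signal of 107.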
